A study of Mus musculus with 2 samples.

Results

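The alpha and beta crystallins are *Cryaa*, *Cryab*, *Cryba1*, *Cryba2*, *Cryba4*, *Crybb1*, *Crybb2* and *Crybb3*, 8 of the 31053 genes counted in single-cell RNA-seq of mouse eyecups at E13.5. They were chosen by symbol alone, with earlier results of these data known, and each had 1 row in the counts of both libraries. The control library held cells from the eyecups of 1 embryo of genotype *Six3*+/-;*Six6*+/-, and the DKO library held cells from the eyecups of 1 littermate of genotype *Six3*F/F;*Six6*-/-;a-Cre. *Six6* was null in every cell of the DKO embryo, whereas floxed *Six3* was lost only where α-Cre, a transgene active in the peripheral retina, was expressed. The control embryo carried 1 null allele of each gene, the *Six3* one from leaky Cre activity in the germ line of the sire, and was therefore no wild type. The DKO embryo was picked by GFP-positive rosettes in its retinas and the control embryo by the lack of GFP. The counts hold no Cre feature, so cells in which Cre had acted could not be picked out. By the labels, the eyecups contained retina, lens and blood.

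Crystallins are the abundant soluble proteins of the lens, where they fill the fibre cells and give the tissue its refractive power. The alpha crystallins are small heat shock proteins that act as chaperones, and *Cryab* is also known from heart, muscle and other tissues. The beta crystallins, acidic (*Cryba1*, *Cryba2*, *Cryba4*) or basic (*Crybb1*, *Crybb2*, *Crybb3*), are structural proteins that assemble with each other and share their fold with the gamma crystallins. In the lens, dividing epithelial cells at the front give rise to fibre cells, which leave the cell cycle, elongate and make beta and gamma crystallins under transcription factors such as Maf, Prox1 and Sox1.

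In the GENCODE M21 annotation of mm10, *Cryaa* lay on chromosome 17 (31677807 to 31681733, plus strand), *Cryab* on chromosome 9 (50751325 to 50756636, plus strand), *Cryba1* on chromosome 11 (77718615 to 77725283, minus strand) and *Cryba2* on chromosome 1 (74889934 to 74893143, minus strand). The other members were all on chromosome 5. *Cryba4* (112246493 to 112252518, minus strand) and *Crybb1* (112255815 to 112269585, plus strand) were transcribed away from each other, with 3296 bases between them. *Crybb2* (113058258 to 113070117) and *Crybb3* (113075839 to 113081584) lay side by side on the minus strand, 5721 bases apart. Genes on the opposite strand overlapped some members: *Hspb2*, which encodes a small heat shock protein, overlapped *Cryab*, and *Nufip2* overlapped *Cryba1*. The longest transcripts had 4 exons for the alpha members and 5 to 7 for the beta members.

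The promoters of 4 of the chromosome 5 members are shown because these members differed most from one another in the results. Each sequence is the stretch just before the RefSeq start (GRCm38.p6), read 5′ to 3′ along the gene. Bases inside the annotated gene were left out, which shortened the *Crybb1* stretch by 5. Capitals mark the core of the Maf recognition element, TGCTGA or its reverse complement TCAGCA, and the TATA box TATAAA or its reverse complement TTTATA.
Cryba4, chr5:112252519-112252668, minus strand: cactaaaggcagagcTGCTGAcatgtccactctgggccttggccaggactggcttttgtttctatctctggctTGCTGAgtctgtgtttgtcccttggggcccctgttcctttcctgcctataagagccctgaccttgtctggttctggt
Crybb1, chr5:112255670-112255814, plus strand: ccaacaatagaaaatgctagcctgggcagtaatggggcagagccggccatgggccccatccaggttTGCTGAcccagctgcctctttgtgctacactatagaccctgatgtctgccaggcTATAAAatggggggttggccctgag
Crybb3, chr5:113081585-113081734, minus strand: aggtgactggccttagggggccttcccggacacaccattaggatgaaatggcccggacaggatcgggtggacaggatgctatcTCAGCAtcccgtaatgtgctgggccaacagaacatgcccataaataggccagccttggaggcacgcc
Crybb2, chr5:113070118-113070267, minus strand: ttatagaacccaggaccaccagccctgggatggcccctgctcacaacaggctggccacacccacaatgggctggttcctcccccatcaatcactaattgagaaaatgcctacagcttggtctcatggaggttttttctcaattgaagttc

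Of the 7 members with a promoter in the RefSeq table, 6 held TGCTGA or TCAGCA within 150 bases before the start. The match of *Cryaa*, 108 to 103 bases before the RefSeq start, lay inside the annotated gene, which covers 124 bases of that window. Among all 32851 promoters of the table, 3311 (10.1%) held it in a window of the same length. *Cryba4* held it at 2 positions, 135 to 130 and 77 to 72 bases before the start, and *Crybb1* at 84 to 79 bases before the start. *Crybb2*, the member at the lowest level in lens cells, did not have these letters in the window. *Crybb1* and *Cryba1* also held TATAAA, which 7.57% of all promoters held. A match of letters is a description of the sequence and no measurement of binding.

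The libraries had similar total counts, 85589515 UMIs over 10315 control cells and 85173276 UMIs over 12672 DKO cells, of which 9822 and 12146 cells passed the study's filters on genes and mitochondrial UMIs. Per cell kept, the median was 7620 UMIs for control and 5879 for DKO. A UMI is 1 captured transcript molecule, and levels are given as UMIs summed over a group of cells per 1000000 UMIs of that group (CPM). Each genotype had 1 library, so no test between genotypes was possible. Cells of 1 library are not replicates, and ranges in parentheses are 95% intervals of counting error alone. Between the libraries 22 cell barcodes were shared, 2 of them in control lens cells. *Six6*, the gene removed from the germ line, fell from 259 to 43.2 CPM outside lens cells, and from 61 to 9 UMIs in lens cells. *Six3* measured 162 CPM in control and 256 CPM in DKO lens cells, and its 3′ tags do not show which exons a cell had lost.

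Lens cells were taken as cells with at least 1% of their UMIs from *Cryaa* and *Cryab*, so these members' own levels in lens cells describe the selection. The rule kept 358 control cells (3.64%) and 344 DKO cells (2.83%), with medians of 5787 and 8028 UMIs, the reverse of the order over all cells. The label was checked with 11 lens fibre genes that are no crystallins, which summed to 4506 CPM in control lens cells and 31.1 CPM in all other control cells. In the DKO library they summed to 2705 and 28.6 CPM, with *Birc7* and *Lgsn* at 0 UMIs in DKO lens cells. Clusters built without any crystallin gene placed 172 control and 217 DKO lens cells in a lens-like cluster. A further 170 and 110 fell in an unnamed cluster of small cells, with medians of 1700 and 1550 UMIs, whose leading genes were gamma and beta crystallins. The 10 red blood genes summed to 7580 CPM in control and 1789 CPM in DKO lens cells, and 5 control and 1 DKO lens cells held at least 10% hemoglobin UMIs; their part in the results was not tested. Just outside the limit, the 24 control cells at 0.8% to under 1% had 9457 CPM of beta members, against 8699 CPM in the 23 cells just inside it. In the DKO library the corresponding values were 9512 and 10074 CPM in 29 and 37 cells.

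The beta crystallins were lower in DKO lens cells than in control lens cells, apart from *Crybb2*, while of the alpha crystallins *Cryaa* was lower and *Cryab* was not. The 8 members made up 13.3% of all UMIs of control lens cells and 5.38% of those of DKO lens cells. By UMIs per cell the sum was 1514 in control and 489 in DKO lens cells. The plot of levels in lens cells gives each member in both libraries.

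**Figure D1:**
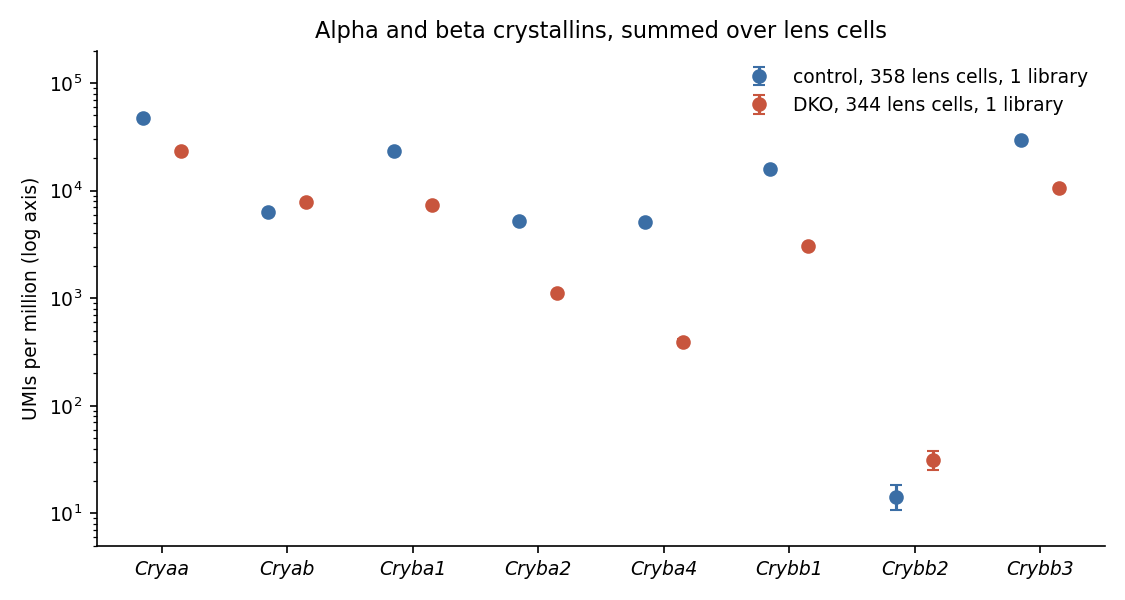
Level of each alpha and beta crystallin in CPM (log axis) summed over 358 control and 344 DKO lens cells, 1 library each; bars are exact Poisson 95% intervals and are mostly smaller than the points. All members but *Cryab* and *Crybb2* sit lower in the DKO library, with the widest gap for *Cryba4* (5124 against 393).

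*Cryaa*, the major alpha chaperone of the lens, measured 47794 CPM in control and 23552 CPM in DKO lens cells, a log2 ratio of DKO over control of -1.02 (-1.03 to -1.01). *Cryab*, its partner, measured 6305 and 7783 CPM, a log2 ratio of 0.30 (0.28 to 0.33). The alpha members thus moved apart, and *Cryab* rose from 4.75% to 14.5% of the UMIs of the 8 members. Counted per cell rather than per UMI, *Cryab* was at 71.8 UMIs in control and 70.8 in DKO lens cells.

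Among the acidic beta crystallins, *Cryba4* differed most. It measured 5124 CPM in control and 393 CPM in DKO lens cells, a log2 ratio of -3.71 (-3.79 to -3.62). *Cryba2* measured 5269 and 1112 CPM, a log2 ratio of -2.25 (-2.30 to -2.19). *Cryba1* measured 23146 and 7312 CPM, a log2 ratio of -1.66 (-1.68 to -1.64).

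The basic members spanned the widest range of levels. *Crybb3* had the most UMIs of the beta members in both libraries, at 29478 and 10543 CPM, a log2 ratio of -1.48 (-1.50 to -1.47). *Crybb1*, the neighbour of *Cryba4*, measured 15737 and 3088 CPM, a log2 ratio of -2.35 (-2.38 to -2.32). *Crybb2*, known as the main beta crystallin of the mature lens, was close to absent at this age, with 58 UMIs (14.2 CPM) in control and 97 UMIs (31.0 CPM) in DKO lens cells, a log2 ratio of 1.12 (0.64 to 1.62). Counts of 3′ ends do not grow with transcript length, so that CPM of different members were set side by side without a length correction.

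A filter of 100 UMIs and 50 CPM, to be reached in 1 of the libraries, was passed by 7 members, of which 6 were at least 2-fold lower in DKO lens cells, namely *Cryaa* and all 5 beta members tested, and none was 2-fold higher. *Cryaa* is part of the lens rule and lay close to 2-fold, with log2 ratios of -0.97 in the lens-like cluster, -0.91 over all deposited cells, -0.74 at a limit of 2% and -0.10 at a limit of 5%. Of the 3029 genes past the same filter, 1.91% were 2-fold lower and 2.44% were 2-fold higher. The median log2 ratio was -1.66 over the 7 members and 0.23 over all 3029 genes. The beta members were lower in both crystallin-rich clusters as well. In the lens-like cluster, which no crystallin shaped, 5 of 5 beta members tested were at least 2-fold lower, with log2 ratios from -4.22 for *Cryba4* to -1.30 for *Crybb3*, where 1.56% of genes were 2-fold lower. In the unnamed crystallin-led cluster they ran from -3.18 for *Cryba4* to -2.01 for *Cryba1*, where 3.95% of genes were 2-fold lower, and *Cryab* was at -0.10 (-0.18 to -0.02).

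Cell by cell, the members varied far more within a library than the sums show. Control lens cells ran from 1866 to 124570 CPM of *Cryaa* with a median of 38506, and DKO lens cells from 999 to 171280 CPM with a median of 14761. The ranges overlapped fully for *Cryaa*, and at the 90th percentile DKO cells had 65307 CPM against 89338 CPM in control cells. For *Crybb3*, present in every lens cell of both libraries, medians were 14617 and 8391 CPM and the lowest cells had 1995 and 1808 CPM. *Cryab* had medians of 6538 and 7055 CPM and was without a UMI in 24 control and 10 DKO lens cells.

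After the scarce *Crybb2*, *Cryba4* was the member most often missing from a lens cell. It had no UMI in 156 of 358 control cells (43.6%) and 280 of 344 DKO cells (81.4%). At a common depth of 2000 UMIs drawn from every cell, with 108 control and 77 DKO cells too shallow to be drawn from, *Cryba4* was seen in 42.4% of control cells (36.2% to 48.8%) and 10.5% of DKO cells (7.08% to 14.8%). Red blood cells with under 0.1% of UMIs from *Cryaa* and *Cryab*, which should lack it, showed it in 1.15% and 0.151% of cells at that depth, and in 6.21% and 0.736% before drawing, with median depths of 8737 and 6753 UMIs. The red blood cells over that limit held most of this gene's UMIs of the class in the DKO library, where 9 of 46 were in cells under it. *Crybb1* was seen in 66.8% and 47.6% of lens cells at that depth and *Cryba2* in 63.2% and 37.8%, whereas *Cryba1* was seen in 97.2% and 97.4%.

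Most members followed the fibre genes across control lens cells. The lens epithelium list was too sparse to split the cells, being higher than the fibre list in 0 control and 4 DKO lens cells, so each library's lens cells were ordered by their UMIs of the fibre list per UMI of genes that are no crystallins and cut into 4 groups of equal size, numbered from the fewest fibre UMIs (group 1) to the most (group 4). From group 1 to group 4 of control lens cells, *Cryba4* rose from 165 to 14410 CPM, a log2 ratio of 6.45 (6.19 to 6.73). *Crybb1* rose from 612 to 38429 CPM and *Cryaa*, part of the lens rule, from 9512 to 81309 CPM. *Cryab* went the other way, from 8103 to 4367 CPM, and *Crybb2* had 24 UMIs (33.8 CPM) in group 1 and 5 (3.84 CPM) in group 4. The cell division list was at 996 in group 1, 1369 in group 2, 313 in group 3 and 25.4 in group 4. These values are per 1000000 UMIs of genes that are no crystallins.

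In DKO lens cells *Cryaa* and the beta members other than *Crybb2* were also highest in group 4. Their rise from group 1 to group 4 was smaller than in control, and each was lower in group 2 than in group 1. *Cryba4* measured 144 CPM in group 1, 7.51 in group 2, 53.2 in group 3 and 1309 in group 4, a log2 ratio of group 4 over group 1 of 3.19 (2.84 to 3.56). *Crybb1* measured 1103 CPM in group 1 and 9741 CPM in group 4. *Cryab* did not fall here, with 6616 CPM in group 1 and 8508 CPM in group 4. Of the 86 DKO cells of group 1, 22 were in the lens-like cluster, their median was 2609 UMIs, and beta members were higher there than in group 2. Group 4 of the DKO library also had less of the fibre list itself. It was at 5693, against 12405 in the control library, per 1000000 UMIs of genes that are no crystallins. Groups of the libraries are therefore not matched.

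**Figure D2:**
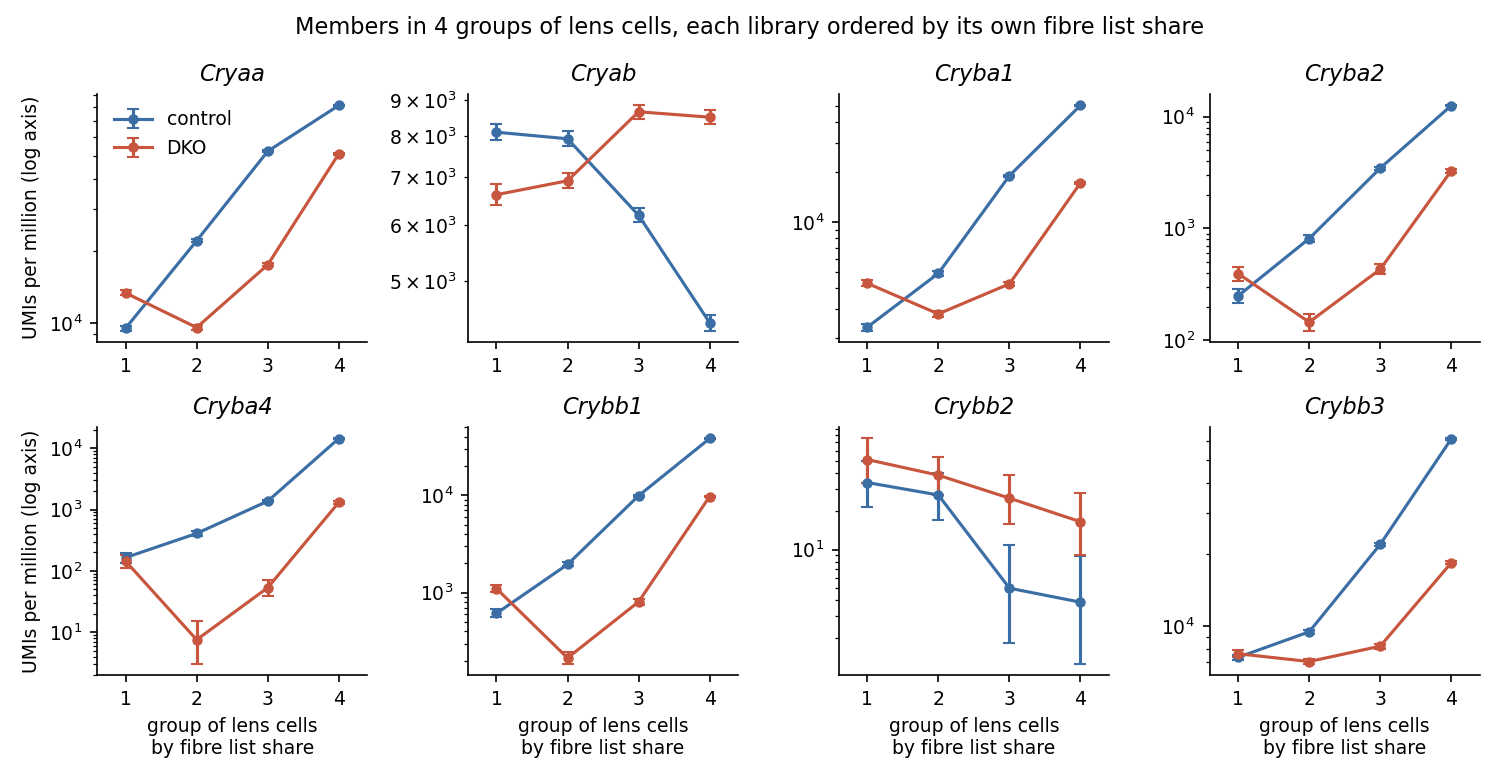
Each panel gives 1 member in CPM (log axis, own range per panel) in the 4 groups of lens cells, each library ordered by its own share of UMIs from the lens fibre list, 86 to 90 cells per point; bars are exact Poisson 95% intervals. In control cells *Cryaa* and all beta members but *Crybb2* climb from group 1 to group 4, whereas *Cryab* falls from 8103 to 4367.

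Lens cells of the libraries were also compared at the same level of the fibre list. For these ranges, CPM of the fibre list means UMIs per 1000000 UMIs of genes that are no crystallins. Levels of members stayed per 1000000 of all UMIs. Cells with at least 10000 CPM of the fibre list made up 17.6% of control lens cells (63 cells, 13.8% to 21.9%) and 4.94% of DKO lens cells (17 cells, 2.90% to 7.79%). In these, *Cryba2* was at 14016 CPM in control and 14001 CPM in DKO cells, and *Cryba1* at 53695 and 56346 CPM. *Cryba4* stayed lower, at 17080 and 7907 CPM, a log2 ratio of -1.11. One DKO cell held 35.1% of the UMIs of those 17 cells, and without the largest cell of each library the log2 ratio of *Cryba4* was -0.57 and that of *Cryab* was -0.99 in place of -0.38. The other members then lay between -0.46 for *Crybb3* and 0.06 for *Cryba1*. Of the cells in this range, 40 control and 13 DKO cells were in the unnamed crystallin-led cluster of small cells.

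At intermediate levels the difference was clear for most beta members. In cells at 3000 to under 10000 CPM of the fibre list, 129 control and 95 DKO cells, *Cryba4* was at 2408 and 425 CPM, a log2 ratio of -2.50 (-2.65 to -2.36), and without the largest cells -3.07. *Cryba1*, *Cryba2*, *Crybb1* and *Crybb3* had log2 ratios from -1.39 to -0.98 there. At 1000 to under 3000 CPM, 109 control and 176 DKO cells, *Cryba4* (-3.51), *Crybb1* (-1.80) and *Cryba2* (-1.13) were lower while *Cryba1* (-0.13) and *Crybb3* (-0.17) were nearly level. Under 1000 CPM no member was 2-fold lower in the 56 DKO cells, and *Crybb1* was higher, with a log2 ratio of 1.65 (1.37 to 1.93), or 0.99 without the largest cells. *Cryba1* (1.17) and *Cryba2* (1.08) were higher there too, at 0.83 and 0.57 without the largest cells.

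**Figure D3:**
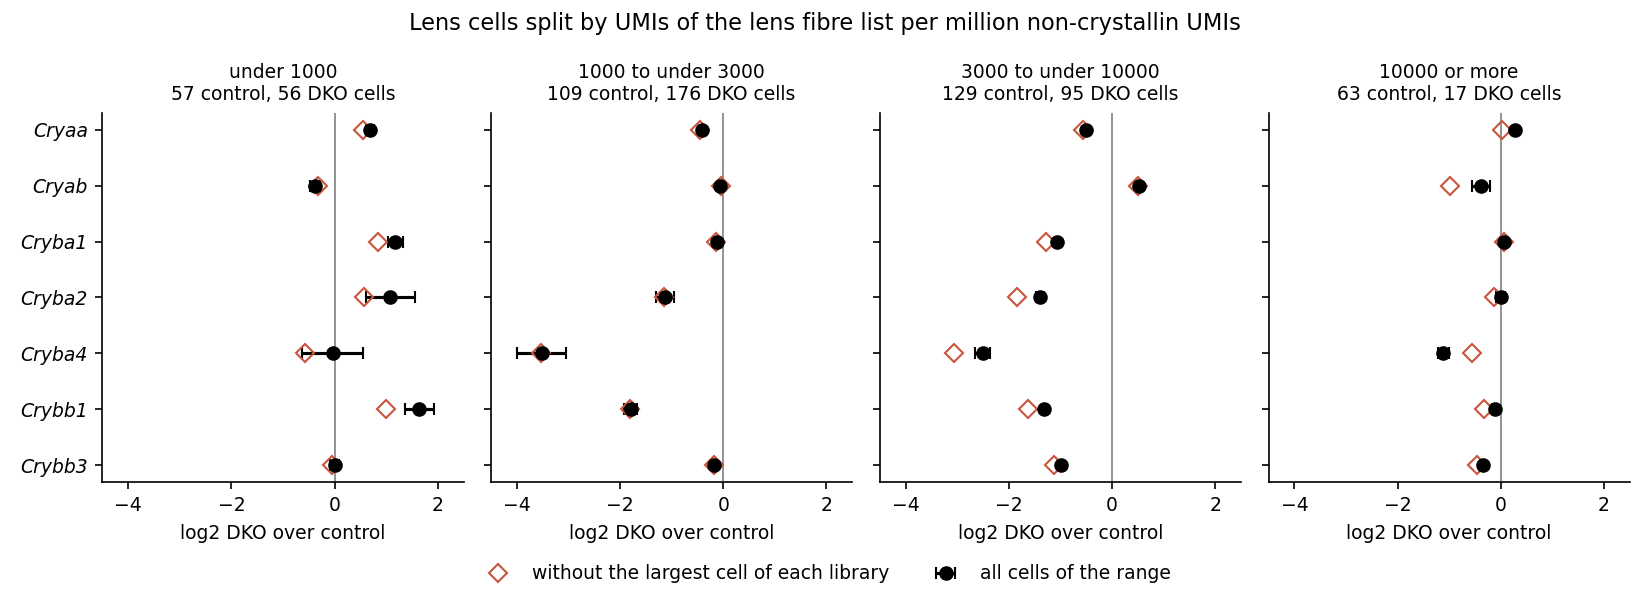
Log2 ratio of DKO over control (horizontal axis) of 7 members in lens cells, with the number of cells above each panel. Cells are grouped by UMIs of the lens fibre list per 1000000 UMIs of genes that are no crystallins. Black points with bars are all cells with 95% counting intervals and open diamonds leave out the largest cell of each library. *Cryba4* lies furthest to the left in the middle panels. In the panel of 10000 or more it lies at -1.11 with all cells and at -0.57 without the largest cells, where *Cryab* lies further left at -0.99. The other members lie closer to 0 in that panel. *Crybb2*, with 0 to 68 UMIs per range and library, is not drawn.

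Part of the lens fibre genes were lower in DKO lens cells and the lens epithelium genes tested were higher, 1 of them outside the lens as well. Of the 8 fibre list genes tested, 3 were at least 2-fold lower and none was 2-fold higher. The 3 epithelium genes tested, *Cdh1*, *Pdgfra* and *Gja1*, were all at least 2-fold higher, with *Cdh1* at 47.3 CPM in control and 126 CPM in DKO lens cells, against the 2.44% of all genes given above. *Gja1*, a gap junction gene, had 14.0 and 68.1 CPM in lens cells, less than the 44.7 and 189 CPM of all other cells, where it was higher in DKO by a log2 ratio of 2.08 (2.03 to 2.14). The 6 cell division genes summed to 525 and 940 CPM, with none past 2-fold. All 8 gamma crystallins, the fibre proteins nearest to the beta family, were at least 2-fold lower in DKO lens cells, with a median log2 ratio of -2.77 and a summed level of 39190 CPM in control and 7293 CPM in DKO cells. Among the 14 genes listed as regulators of crystallin genes, 10 passed the filter, of which 1 was 2-fold lower. *Maf*, known to bind the element shown above in crystallin promoters, fell from 1088 to 491 CPM, a log2 ratio of -1.15 (-1.23 to -1.06). *Prox1* measured 440 and 356 CPM, *Pitx3* 125 and 123 CPM and *Sox1* 73.3 and 50.8 CPM, none of them past 2-fold. Of the 7 other small heat shock genes only *Hspb2* passed the filter, at 50.7 and 72.2 CPM in lens cells. *Hspb2* and *Cryab* overlap head to head, from 50751325 to 50752354, at the 5′ end of *Cryab*. The 3′ end of *Cryab* lies at 50756636, outside the overlap. Without the strand setting of the counting, reads within the shared stretch cannot be told apart, and how many fell there was not tested.

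Over 41 groups of cells, each a cluster of 1 library with at least 30 cells, the genes that are no crystallins whose level ran most like the mean of the 8 members were *Lim2* (Pearson r = 0.98), *Mip* (0.98), *Bfsp2* (0.97), *Grifin* (0.97) and *Pitx3* (0.97). *Lim2* and *Mip* encode fibre membrane proteins and *Bfsp2* a beaded filament protein. The points share libraries and free RNA, and the likeness describes which clusters hold lens transcripts. These genes did not all move alike between the libraries. *Mip* fell from 776 to 249 CPM in lens cells and *Lim2* from 1270 to 661 CPM, whereas *Grifin* measured 297 and 392 CPM.

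Outside lens cells the members were present at low levels in every class, and lens cells held 95.1% (control) and 90.6% (DKO) of their UMIs. Lens cells were picked by *Cryaa* and *Cryab*, so the rule partly fixes this share. Beta members, which the rule does not use, had shares from 93.2% (*Crybb3*) to 96.5% (*Cryba1*) in control, apart from the scarce *Crybb2* at 59.8%. In DKO they ran from 77.0% (*Crybb2*) to 93.1% (*Crybb1*). *Cryba4* in the DKO library had the lowest share in lens cells among members with over 1000 UMIs, 78.8% (76.7% to 80.8%). In all other cells *Cryaa* measured 103 CPM in control and 66.9 CPM in DKO cells, *Crybb3* 115 and 71.0 CPM and *Crybb1* 32.0 and 9.12 CPM. Only 2 members, *Cryaa* and *Crybb3*, passed the filter there, and neither was 2-fold lower, where 0.446% of 3361 genes were. A few cells carried much of this. In the lens-like cluster 43 control and 41 DKO cells under the limit held 33.0% and 40.4% of the members' UMIs outside lens cells. Among red blood cells, 11 of 690 DKO cells with 0.1% to under 1% of *Cryaa* and *Cryab* held 82.1% of the members' UMIs of that class, and 11 of 1235 control cells held 26.1%. Of the 11 cells, 2 in each library were called doublets. Their fibre list was at 618 CPM in the DKO library, and at 186 CPM in the control library against 16.6 CPM in the remaining control red blood cells. For the levels below, cells of a class were therefore kept only under 0.1%, a limit set after these values were seen.

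The cells of the lens-like cluster under the 1% limit had a make-up of their own. Their low *Cryaa* and *Cryab* were fixed by the rule. *Crybb3* made 43.6% of their member UMIs in the control and 40.9% in the DKO library, against 22.2% and 19.6% in lens cells. *Cryba4* made 0.216% and 0.0285%, against 3.86% and 0.730% in lens cells. *Crybb2* measured 50.8 CPM (33 UMIs) in 43 control and 45.7 CPM (19 UMIs) in 41 DKO cells. In red blood cells under 0.1%, *Crybb2* had 0 UMIs in control and 1 UMI in DKO cells. *Cryba1* was higher in the DKO cells of this group, with 1042 and 2325 CPM, a log2 ratio of 1.16 (1.01 to 1.30).

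Free RNA, transcripts released from broken cells and captured in every droplet, gives all cell types of a library a like low level in the proportions of its source. Red blood cells, which should make no crystallin, held 1.18 member UMIs per cell in the control and 0.396 in the DKO library. Retinal cells held 1.45 and 0.447 per cell, and retinal progenitor-like, neurogenic-like and ganglion-like cells lay between 1.30 and 1.52 for control and between 0.397 and 0.476 for DKO. Pigmented-like cells are part of the retinal class. *Cryaa* measured 50.8 CPM in control retinal and 44.1 CPM in control red blood cells, and 19.0 and 12.7 CPM in the DKO library. The median log2 ratio of retinal over red blood cells over the members was 0.32 for control and 0.12 for DKO. Under the planned limit of 1%, with the crystallin-rich red blood cells included, it was 0.57 for control and -1.63 for DKO, so that the 0.1% limit turned the sign in DKO. In control, 6 of the 7 members compared lay above red blood cells beyond counting error, from 0.20 for *Cryaa* to 0.59 for *Cryba2*, and *Cryba4* did not. In DKO only *Cryaa* did, at 0.59 (0.23 to 0.97). The 0.1% limit is itself set on *Cryaa* and *Cryab*, so the ratios of these members partly describe that limit. Under the 1% limit, *Cryaa* in DKO was at -1.10 (-1.26 to -0.94). Under 0.1%, neurogenic-like cells held *Cryba1* above red blood cells, with log2 ratios of 0.85 (0.58 to 1.11) in control and 1.13 (0.63 to 1.65) in DKO. By UMIs per cell these were 0.56 (0.29 to 0.82) and 0.63 (0.13 to 1.15). Ganglion-like cells had *Cryba1* at 0.23 (-0.07 to 0.53) in control and 0.62 (0.14 to 1.14) in DKO. *Cryaa* of neurogenic-like cells was at 0.34 (0.16 to 0.51) and 0.93 (0.52 to 1.35).

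The make-up of these UMIs was close to that of the library's own lens cells, with exceptions in the DKO library. *Cryaa*, *Cryba1*, *Crybb1* and *Crybb3* made 31.7%, 14.7%, 13.1% and 25.6% of the members' UMIs in control retinal cells, against 36.0%, 17.4%, 11.8% and 22.2% in control lens cells. *Cryab* made 5.07% in control and 14.9% in DKO retinal cells, as against 4.75% and 14.5% in lens cells, so that the higher share of *Cryab* in the DKO lens was seen in retinal cells too. *Cryaa* made 32.5% (31.0% to 34.1%) of the members' UMIs in DKO retinal cells and 43.8% in DKO lens cells. *Cryba4* was at 2.57% (2.08% to 3.13%) of DKO retinal member UMIs and 0.730% (0.690% to 0.772%) in DKO lens cells. It made 2.47% in the unnamed crystallin-led cluster of the DKO library. Between the libraries, *Cryba4* was lower in DKO retinal cells with a log2 ratio of -2.44 (-2.77 to -2.12), *Crybb1* with -2.36 (-2.55 to -2.16) and *Cryaa* with -1.42 (-1.51 to -1.32), whereas *Cryab* was at 0.10 (-0.08 to 0.28). Red blood cells also differed between the libraries, and free RNA and expression in retinal cells cannot be told apart here, so no difference between control and DKO retina is read from these values.

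**Figure D4:**
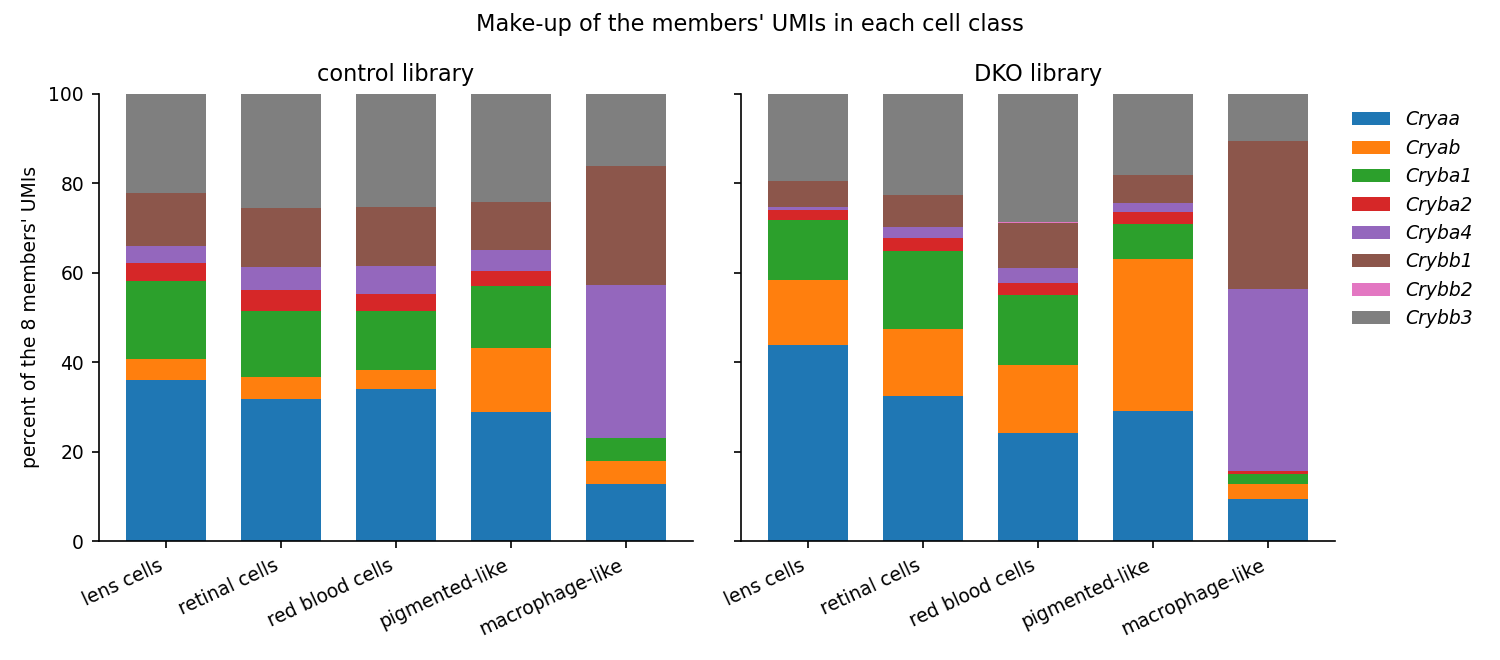
Share of each member in the UMIs of the 8 members (bars sum to 100 percent) in lens cells and in 4 classes of cells with under 0.1% of UMIs from *Cryaa* and *Cryab*, for each library. Retinal and red blood cells hold the abundant members of lens cells, pigmented-like cells hold more *Cryab*, and macrophage-like cells hold mostly *Cryba4* and *Crybb1* (34.2% and 26.5% in control, 40.8% and 33.0% in DKO).

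Macrophage-like cells stood apart from retinal cells for *Cryba4* and *Crybb1*. The 51 control cells under 0.1% held 40 UMIs of *Cryba4* (134 CPM) and the 152 DKO cells 73 UMIs (105 CPM), where retinal cells other than pigmented-like ones had 8.14 and 1.55 CPM. That is a log2 ratio over retinal cells of 4.04 (3.54 to 4.51) in the control and 6.09 (5.62 to 6.56) in the DKO library. *Crybb1* followed with 31 and 59 UMIs, 104 and 85.2 CPM, and log2 ratios of 2.29 (1.73 to 2.81) and 4.36 (3.92 to 4.78). Of the genes with at least 20 UMIs, 3.35% in control and 4.41% in DKO macrophage-like cells were 8-fold or more above retinal cells. *Crybb1* in control was short of that, at 4.90-fold, where 9.49% of genes were 2-fold or more above retinal cells. By UMIs per cell *Cryba4* was at 0.784 and 0.480 in macrophage-like cells and at 0.0733 and 0.0116 in retinal cells, the same order as by CPM. The UMIs were spread over cells, with *Cryba4* in 21 of 51 control and 46 of 152 DKO cells, both genes together in 14 and 12 cells, and at most 6 and 5 UMIs of *Cryba4* in 1 cell.

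The remaining members had few UMIs in macrophage-like cells. *Cryaa* had 15 and 17 UMIs, a log2 ratio over retinal cells of -0.01 (-0.85 to 0.71) in control and 0.35 (-0.43 to 1.04) in DKO cells. *Crybb3* had 19 UMIs in each library, log2 ratios of 0.64 (-0.09 to 1.29) and 1.01 (0.27 to 1.67), where 11.3% of genes in the DKO library were 2-fold or more above retinal cells. By UMIs per cell *Crybb3* was nearly level, at 0.373 and 0.125 in macrophage-like cells and 0.367 and 0.102 in retinal cells. *Cryba2* had 0 UMIs in control cells, which allows up to 10.1 CPM at a floor of 3 UMIs, and 1 in DKO cells. Between the libraries, *Cryba4* and *Crybb1* of macrophage-like cells did not differ beyond counting error, with log2 ratios of -0.35 (-0.92 to 0.25) and -0.29 (-0.94 to 0.39). In lens cells the same genes had log2 ratios of -3.71 and -2.35. Lens cells held 0.980 CPM of the 9 macrophage markers in the control and 11.8 CPM in the DKO library.

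*Cryab* was higher in pigmented-like and mesenchyme-like cells than in the other retinal cells. Pigmented-like cells, a cluster led by *Pmel*, *Trpm1*, *Dct* and *Gja1*, had 25.9 CPM in the control and 20.6 CPM in the DKO library, against 6.41 and 7.10 CPM in the other retinal cells, log2 ratios of 2.01 (1.72 to 2.30) and 1.54 (1.26 to 1.81). In this contrast 7.27% of genes in the control and 9.17% in the DKO library were 2-fold or more higher. *Cryaa* in the same cells was at 52.1 and 17.7 CPM, within counting error of the other retinal cells. *Cryba1* was below them in the DKO library, at 4.75 CPM, with a log2 ratio of -1.21 (-1.74 to -0.72). Between the libraries, *Cryab* of pigmented-like cells had a log2 ratio of -0.33 (-0.67 to 0.01). The cluster held 576 control and 898 DKO cells, whereas the pigmented-like cluster of the merged libraries held 39 and 1433, so that its make-up may differ between the libraries. The 31 DKO mesenchyme-like cells had 17 UMIs of *Cryab* (79.9 CPM), a log2 ratio of 3.49 (2.70 to 4.19), where 2.28% of genes were 8-fold or more higher, and the 4 control cells had 4 UMIs.

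**Figure D5:**
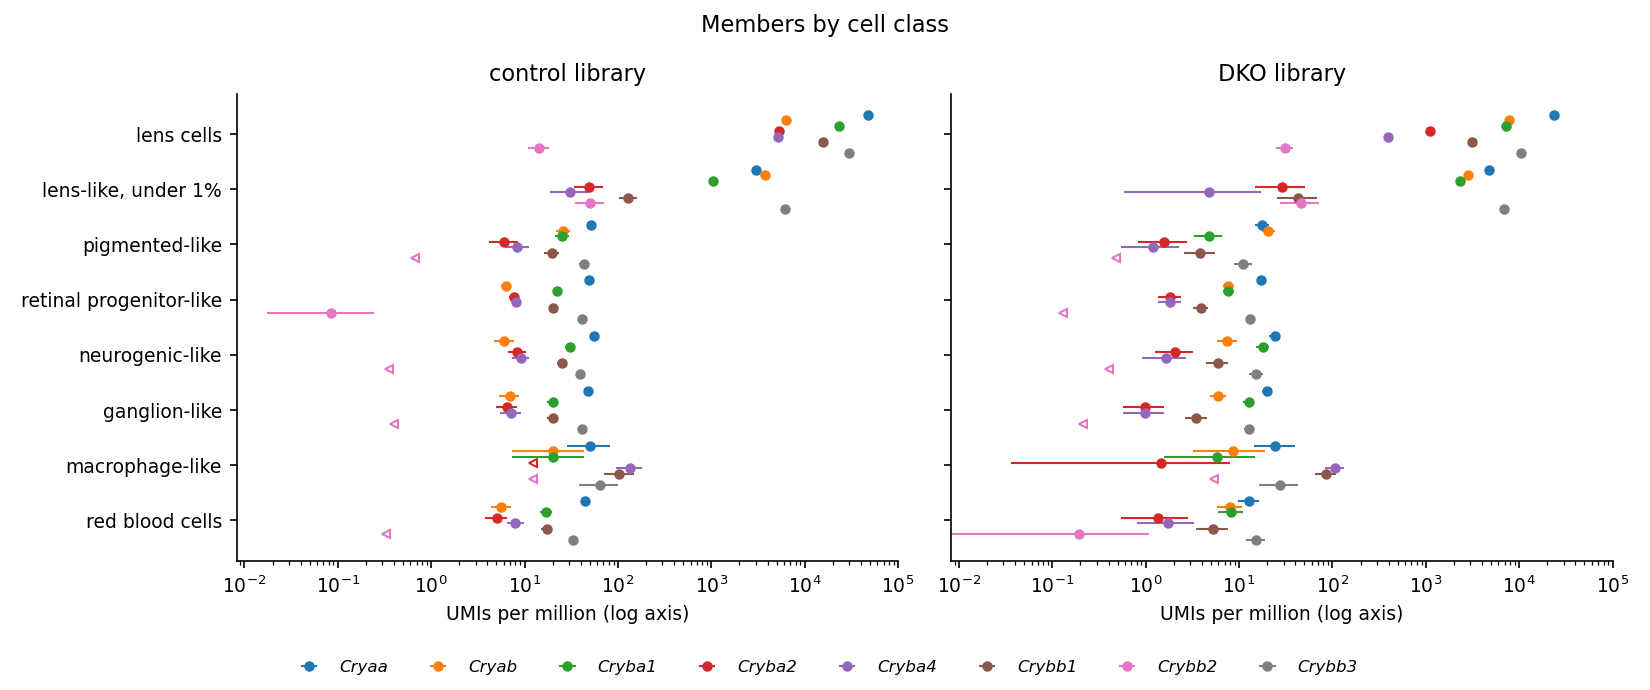
Level of each member in CPM (log axis) by cell class in the control (left) and DKO (right) library; bars are exact Poisson 95% intervals and open triangles mark the upper limit where no UMI was found. Classes from pigmented-like downwards hold cells under 0.1% of UMIs from *Cryaa* and *Cryab*; *Cryba4* and *Crybb1* stand out to the right in macrophage-like cells of both libraries, and *Cryab* in pigmented-like cells.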

How the data were processed

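Cells of dissociated eyecups were profiled by droplet capture of 3′ ends (10x Genomics kit, version 3), 1 library for control and 1 for DKO. The authors mapped reads to mm10 with Cell Ranger 3.1.0 and deposited, for each library, raw UMI counts per gene and cell without normalization. Cells with over 200 and under 6000 genes and under 20% mitochondrial UMIs were kept, after the study's methods. Libraries were integrated and clustered with Seurat 5.3.0 (2000 variable genes without crystallins, 20 dimensions, resolution 0.5) into 22 clusters. A cluster was named where at least 75% of a class's markers, and no fewer than 3, were over 1.5 times their level in the other clusters with 20 UMIs, and stayed unnamed where its UMI count was low in both libraries and no such marker led it, or where another class led it. Red blood cells had at least 10% hemoglobin UMIs. Scrublet in scanpy 1.11.5 called 300 control and 329 DKO doublets at a score threshold of 0.225, the DKO library's automatic one, since the control library's own called 0; doublets were kept. CPM and exact Poisson, binomial and binomial-split intervals came from scipy 1.17.1, pandas 2.3.3 and numpy 2.4.6 under Python 3.11.15. On simulated lens counts, 200 of 200 genes changed 4-fold were recovered past 2-fold and 95.2% of intervals held the true ratio over 4485 genes. The members and lists were chosen with earlier results of these data known. Genes named are the members, the gamma crystallins, small heat shock genes, regulators, targeted genes, listed markers and the 5 genes most like the members. Some listed regulators are not reported here. Figures were drawn with matplotlib 3.10.9. Groups and ranges of lens cells by the fibre list, the crystallin-led cluster and the 0.1% limit were added after values had been seen.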

Additional observations from a re-analysis of the deposited data

Results flagged for a closer look

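Some members moved in the opposite direction in a class outside the lens than in lens cells; with 1 library for each genotype, the difference was not tested. In red blood cells under the 1% limit, log2 ratios of DKO over control were 0.32 for *Cryaa*, 1.38 for *Cryba1*, 0.96 for *Cryba2* and 0.92 for *Crybb3*, where lens cells gave -1.02, -1.66, -2.25 and -1.48. In macrophage-like cells, *Crybb3* had a log2 ratio of 1.09, where lens cells gave -1.48. Without the cells that held 0.1% or more of UMIs from *Cryaa* and *Cryab*, 11 red blood cells in each library and 4 control and 9 DKO macrophage-like cells, the ratios in the same order were -1.80, -1.06, -1.88 and -1.13 in red blood cells and -1.22 in macrophage-like cells.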

How the results depend on the processing

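No paired analysis was possible because there was only 1 library of either genotype, and leaving out a replicate gave no value. The planned split of lens cells into a fibre and an epithelium side gave no value, since the epithelium side held 0 control and 4 DKO cells; 4 groups by the fibre list took its place. These groups, fixed fibre ranges, the limit of 0.1% and the joining of the lens-like with the crystallin-led cluster were chosen after seeing the data. Causes of the shifts below were not tested.

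The median log2 ratio of DKO over control over the 8 members was -1.57 in lens cells. It was -1.53, -1.42 and -0.83 at limits of 0.5%, 2% and 5%, -1.44 in the lens-like cluster, -1.54 with the crystallin-led cluster added, -1.53 in the lens-like cluster of the merged libraries, -1.49 over all deposited cells, -1.75 with a total without crystallin UMIs, -1.78 with a size factor, -1.90 per cell and -1.95 over the 6 beta members. In all other cells it was -0.66, and -1.31, 0.046 and -0.10 at limits of 0.5%, 2% and 5%, -2.00 outside the lens-like cluster, -0.71 outside that of the merged libraries, -0.58 over all deposited cells, -0.78 with a size factor, -0.95 per cell and -1.15 over the 6 beta members.

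Signs changed as follows. In lens cells *Cryab* was at -0.021 per cell and *Crybb2* at -1.05 at a limit of 5%. In all other cells *Cryaa*, *Cryab*, *Cryba1* and *Crybb3* were at 0.23, 0.15, 0.40 and 0.0011 at 2%, *Cryaa* and *Cryab* at 0.043 and 0.33 at 5%, and *Cryab* at 0.14 outside the lens-like and crystallin-led clusters and 0.15 outside the lens-like cluster of the merged libraries. There *Crybb2*, at -0.46, was at 0.092 at 2%, 0.47 at 5%, 0.62 outside the lens-like cluster, 0.45 outside it and the crystallin-led cluster and 0.23 outside that of the merged libraries. In lens cells *Cryba4* lay between -4.22 and -2.15 under the alternatives run, whereas at 5% *Cryba1* (-0.57), *Cryba2* (-0.81), *Crybb1* (-0.85) and *Crybb3* (-0.94) were under 2-fold.

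The share of member UMIs in lens cells, 95.1% in control and 90.6% in DKO, was 97.1% and 96.2% at 0.5%, 91.5% and 72.1% at 2%, 80.4% and 40.4% at 5%, 78.3% and 81.2% in the lens-like cluster, 96.3% and 92.2% with the crystallin-led cluster, 96.4% and 92.9% in the merged libraries, 95.2% and 91.8% over all deposited cells and 95.7% and 91.9% without doublets. The median log2 ratio of retinal over red blood cells was 0.57 in control, with 0.27 at 0.5% and 1.11 for all cells neither lens, red blood nor macrophage. In DKO it was -1.63, with -1.23 at 0.5%, -1.12 for red blood cells from 50% hemoglobin, -0.71 for all cells neither lens, red blood nor macrophage and 0.12 at 0.1%.

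The median log2 ratio of group 4 over group 1, 4.43 in control and 2.01 in DKO, was 4.80 and 2.31 at 0.5%, 1.73 and 1.43 at 5%, 5.05 and 2.15 with a total without crystallin UMIs, and 1.07 and 0.64 for the crystallin-led over the lens-like cluster; at 2% the control value was 3.61. Of all genes in lens cells, 2.44% were higher and 1.91% lower past 2-fold, with 13.0% and 3.43% past 1.5-fold and 6.77% higher from 20 UMIs. In all other cells 2.41% and 0.446% became 7.17% and 1.49% past 1.5-fold and 8.65% and 1.49% from 20 UMIs.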

Other observations

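Clusters 10 and 14 held 708 and 442 DKO cells and no control cell, and were not named. Their members summed to 81.8 and 65.6 CPM in cells under 0.1%, against 58.5 CPM in DKO retinal cells. By UMIs per cell the order was the reverse, with 0.389 and 0.406 against 0.447. Median depths were 4470 and 5394 UMIs, against 6588.5 in DKO retinal cells.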
